A study of Mus musculus with 24 samples.

Results

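The step from zeitgeber time 20 (ZT20) to ZT0, the end of the night, was examined in alpha and beta cells of the mouse pancreatic islet. Zeitgeber time counts hours of the lighting cycle, and the labels place islet isolation at 3AM for ZT20 and at 7AM for ZT0. The 8 libraries labelled ZT20 or ZT0 were taken from the 24 libraries of the series by their time label alone: alpha cells at ZT20, alpha cells at ZT0, beta cells at ZT20 and beta cells at ZT0, with 2 libraries each. All cells came from the triple reporter mouse strain, so every group carried the same reporters, and the labels name no treatment and no age. Alpha cells secrete glucagon and beta cells secrete insulin. Total RNA was sequenced after removal of ribosomal RNA. Between 8869212 and 12219276 reads lay behind each of the 8 libraries.

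The circadian clock of mammalian cells is a feedback loop of transcription. The activators BMAL1 (gene Arntl) and CLOCK or its relative NPAS2 bind E-box sequences and drive the genes of their own repressors, the PER and CRY proteins, and of the nuclear receptors REV-ERB alpha and beta (Nr1d1 and Nr1d2). The REV-ERB receptors repress Arntl and Npas2 through sites that ROR receptors use to activate them, and the PAR bZIP factors DBP, TEF and HLF carry the rhythm to output genes through D-box sequences, which the repressor NFIL3 also binds. In islets this clock is known to time hormone secretion.

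In this interval 1 gene of 14027 passed the test, and it was a clock gene. Nr1d2 fell in the comparison over both cell types (limma with Benjamini-Hochberg adjustment over all genes). The call treats alpha and beta libraries of the same number as independent: with an estimated correlation between them no gene was called over both cell types, and Nr1d2 had a limma adjusted p of 0.12. Several other clock genes differed between the times without overlap of the libraries in either cell type: Arntl, Npas2 and Nfil3 were higher at ZT0, and Tef, Hlf, Per2 and Per3 were lower. None of these clock genes passed the test. Of all 14027 genes, 335 (2.39%) were higher and 265 (1.89%) lower without overlap in both cell types. Without both ZT0 libraries of replicate 1 the log2 difference of Per2 went from -0.72 to -0.27 and that of Per3 from -1.33 to -0.47.

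Gcg, Ins2 and Pdx1 followed the cell type labels in the 8 libraries. Gcg, the glucagon gene, lay between 97700 and 151000 RPKM (reads normalised for gene length and for library size) in alpha libraries and between 103 and 372 in beta libraries. Ins2, an insulin gene, lay between 127000 and 208000 RPKM in beta libraries and between 742 and 1210 in alpha libraries. Ins1 and Ins2 are near-identical, so reads may have been split unevenly between the pair. Pdx1, a beta cell factor, lay between 55.6 and 76.4 RPKM in beta and between 1.87 and 4.40 in alpha libraries. Markers of other islet cells were present too, hormone genes among them. The 3 markers of PP cells summed to between 27800 and 48500 RPKM in alpha and between 359 and 517 in beta libraries. The 5 markers of delta cells summed to between 2850 and 5180 RPKM in alpha and between 645 and 1330 in beta libraries. Whether a group's replicates stem from separate animals is not stated in the labels. The p-values therefore measure only the spread between libraries, which may be technical. In bulk samples, fewer cells of a type and less RNA per cell cannot be told apart.

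The ZT0 libraries of replicate 1 stood apart from those of replicate 2, in the same direction in both cell types. Across 14027 genes the log2 difference between replicates 1 and 2 at ZT0 correlated between alpha and beta cells with Pearson r = 0.65, against 0.04 at ZT20 and 0.10 to 0.42 at the other times; genes are not independent replicates, and same-numbered libraries may share a preparation. At ZT0, 421 genes differed more than 2-fold between the replicates in the same direction in both cell types, and 13 in opposite directions. In replicate 1 of both cell types all 31 genes of cytosolic ribosomal proteins and all 26 of the respiratory chain and ATP synthase were higher than in replicate 2, whereas 4 of the 6 PER, CRY and CIART genes, 14 of 20 immediate early genes and 10 of 12 channel genes of secretion were lower. The summed level of the long nuclear RNAs Malat1, Neat1 and Meg3 was 1490 RPKM in replicate 1 and 2710 in replicate 2 of the ZT0 alpha cells, and 916 against 2290 in the ZT0 beta cells. These 3 RNAs were chosen after their values were seen.

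**Figure D1:**
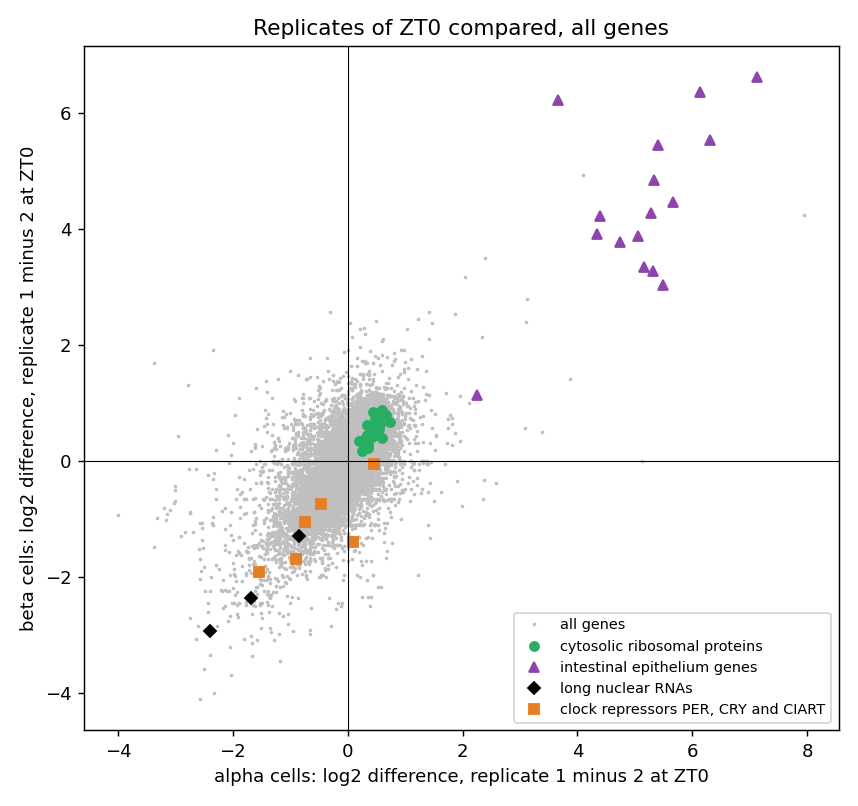
Log2 difference between replicates 1 and 2 at ZT0 in alpha cells (x axis) and beta cells (y axis), with 1 point per gene (14027 genes, grey) and 4 gene groups in colour. The points lie along the diagonal (r = 0.65), with ribosomal protein genes above 0 and the long nuclear RNAs below 0 on both axes.

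Replicate 1 of ZT0 also held RNA of genes of the intestinal epithelium. A list of 21 such genes, 16 of them measured, was drawn up after the values were seen. The filter that set the measured genes is not known, so members may have passed it only through libraries where they are high. The sums and the count below are therefore a description. The summed level of the 16 genes was 139 RPKM in replicate 1 and 3.20 in replicate 2 of the ZT0 alpha cells. In the ZT0 beta cells it was 83.8 against 1.27. At ZT20 the sums were 10.1 and 1.02 RPKM in alpha and 3.03 and 1.06 in beta cells. Each of the 16 genes, among them the lipid transport genes Apoa4 and Fabp2 and the mucin gene Muc2, had its highest level among the 4 libraries of its cell type in replicate 1 of ZT0. These reads were 0.0227% of that alpha library and 0.0115% of that beta library. The next highest sum in the series was 61.5 RPKM, in replicate 1 of the ZT16 alpha cells. The part of these libraries in the results was not tested, and values without them stand beside the clock genes and gene groups that moved most.

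**Figure D2:**
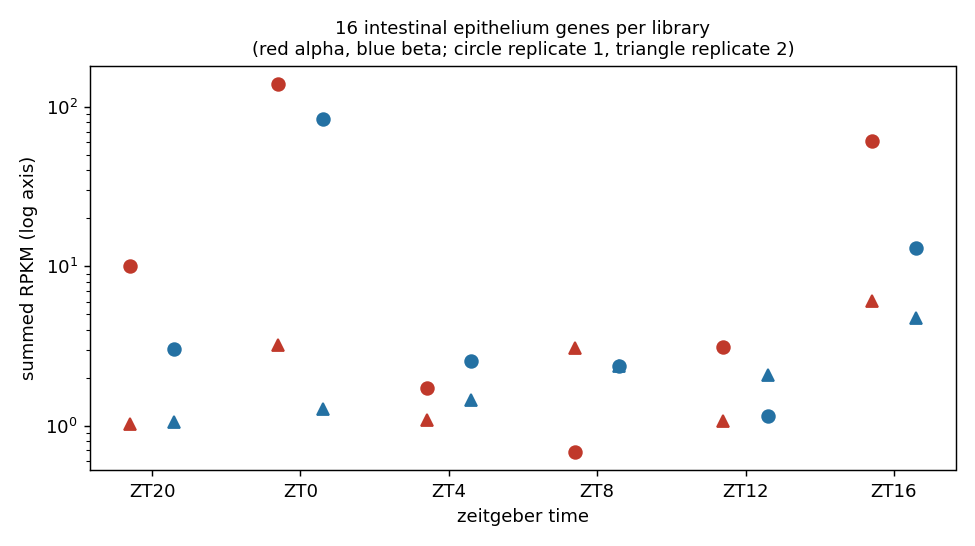
Summed RPKM of 16 intestinal epithelium genes (log axis) in each of the 24 libraries by zeitgeber time, with alpha cells in red, beta cells in blue, replicate 1 as circles and replicate 2 as triangles. Replicate 1 of ZT0 holds the highest sums, 139 in alpha and 83.8 in beta cells.

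Nr1d2, the gene of REV-ERB beta, lies on chromosome 14 (GRCm38, chr14:18204054-18239127, minus strand, protein-coding). In alpha cells it had 7.84 and 10.9 RPKM at ZT20 and 4.14 and 4.91 at ZT0 (replicates 1 and 2). The beta libraries had 10.02 and 10.9 RPKM at ZT20 and 7.78 and 6.75 at ZT0. The 4 ZT0 libraries lay below the 4 ZT20 libraries, with no overlap in either cell type or across them. Nr1d2 fell by 0.78 on the log2 scale over both cell types (SE 0.10, 1.71-fold, limma with Benjamini-Hochberg, adjusted p = 0.01). It was the only gene called, 0.00713% of those tested. In alpha cells alone it fell by 1.03 (SE 0.14, 2.04-fold, limma adjusted p = 0.023), again the only call (0.00713%). In beta cells alone its log2 difference was -0.52 (SE 0.14, limma adjusted p = 1). The alpha and beta steps of Nr1d2 differed by -0.51 (SE 0.20), which did not pass (limma adjusted p = 1, unadjusted p = 0.022). The size of this difference varied with the libraries used. It was -0.28 without both ZT0 libraries of replicate 1 and -0.73 without those of replicate 2. Over 19 other settings it lay between -0.75 and -0.27.

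The call of Nr1d2 depended on the setting, while its size was similar across settings. Over 20 other settings its log2 difference in both cell types lay between -0.90 and -0.66, and it was called in 12 of them. In fits of the 8 libraries alone the call was lost, far from the threshold. With cell type and time as additive factors the limma adjusted p was 0.89 there. Without replicate 1 of the ZT0 alpha cells the adjusted p was 0.11, and without replicate 2 of the ZT20 alpha cells it was 0.051. Without replicate 1 or replicate 2 of the ZT20 beta cells it was 0.052 and 0.12. Without both ZT0 libraries of replicate 1 the log2 difference was -0.77 and the limma adjusted p 0.11. With an estimated correlation between alpha and beta libraries of the same time and number it was 0.12. In alpha cells alone the call was lost without replicate 1 (log2 difference -0.91, limma adjusted p = 0.98) or replicate 2 of ZT0 (-1.15, limma adjusted p = 0.07) and without replicate 2 of ZT20 (-0.79, limma adjusted p = 0.84).

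From ZT12 to ZT0 the mean of Nr1d2 was lower at each later time in both cell types. Its mean level in alpha cells was 41.8 RPKM at ZT12, 21.9 at ZT16, 9.38 at ZT20 and 4.53 at ZT0, and 14.4 at ZT4. In beta cells the means were 52.6, 22.2, 10.4, 7.26 and 28.4 RPKM at the same times. ZT0 was the lowest of the 6 times in both cell types. On the log2 scale the step from ZT20 to ZT0 spanned 32.2% of the range over the 6 times in alpha and 18.3% in beta cells.

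Windows before the start sites of 3 clock genes with lower levels at ZT0 are shown because their letters can be set beside the levels: Nr1d2, the gene called, Tef, the clock gene with the next lowest p, and Per3, the clock gene with the most negative difference. They are RefSeq sequences of GRCm38.p6, 5′ to 3′ on the gene's strand, up to 250 bases before an annotated start. Capitals mark an E-box (CACGTG) in Tef and D-boxes (TTANGTAA) in Per3, searched on both strands.
Nr1d2 (chr14:18239128-18239356, minus strand): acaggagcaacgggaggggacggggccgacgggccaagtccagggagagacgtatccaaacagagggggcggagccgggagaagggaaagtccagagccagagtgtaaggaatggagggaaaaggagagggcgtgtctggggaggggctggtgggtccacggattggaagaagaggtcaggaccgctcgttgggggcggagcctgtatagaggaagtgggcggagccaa
Tef (chr15:81811164-81811413, plus strand, the downstream of 2 annotated starts): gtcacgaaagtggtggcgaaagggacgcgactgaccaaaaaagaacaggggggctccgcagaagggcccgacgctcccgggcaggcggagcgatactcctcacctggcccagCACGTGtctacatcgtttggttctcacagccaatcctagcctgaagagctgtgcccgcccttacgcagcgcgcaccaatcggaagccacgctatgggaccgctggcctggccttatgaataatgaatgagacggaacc
Per3 (chr4:151044666-151044915, minus strand): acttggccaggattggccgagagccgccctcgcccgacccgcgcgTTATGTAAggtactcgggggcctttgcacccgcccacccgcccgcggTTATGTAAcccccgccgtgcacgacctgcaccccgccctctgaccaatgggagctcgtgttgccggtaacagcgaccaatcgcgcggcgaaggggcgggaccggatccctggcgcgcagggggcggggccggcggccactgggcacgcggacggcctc
The Tef window holds its E-box 138 bases before the start, and the window of the other Tef start holds one at 127 bases. The Per3 window holds D-boxes at 205 and 158 bases before the start. Of 32536 windows of 250 bases in the table, 6.04% held the E-box letters and 2.03% the D-box letters. The printed Nr1d2 window holds neither motif, which says only that these letters are not in this window. The windows of Hlf, Cry2, Nr1d1, Dbp, Arntl, Npas2 and Nfil3 were searched too and held neither motif. Of these, Hlf and Cry2 also had lower means at ZT0. A letter pattern of the site shared by REV-ERB and ROR receptors was also searched, and no window of these genes, Nr1d2, Tef or Per3 held it. Whether the motifs go with the direction of the step was not tested.

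Nr1d1, the gene of REV-ERB alpha and the closest relative of Nr1d2, had higher means at ZT0 than at ZT20. It had 0.742 and 1.19 RPKM at ZT20 and 1.13 and 1.32 at ZT0 in alpha cells, where the times overlapped. Beta cells had 1.19 and 1.47 RPKM at ZT20 and 2.27 and 2.72 at ZT0, with no overlap. The log2 difference over both cell types was 0.62 (SE 0.16, limma adjusted p = 0.66), and 0.74 without both ZT0 libraries of replicate 1. Between 28 and 88 reads lay behind these values. Over the day Nr1d1 had its lowest mean at ZT20 in both cell types, 0.966 RPKM in alpha and 1.33 in beta cells, whereas Nr1d2 was lowest at ZT0.

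The ROR receptors act on the same sites as activators. Rora had 7.00 and 7.24 RPKM at ZT20 and 5.84 and 5.82 at ZT0 in alpha cells, with overlapping times in beta cells (log2 difference over both -0.15, limma adjusted p = 1). Rorb had at most 17 reads in any of the 8 libraries.

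**Figure D3:**
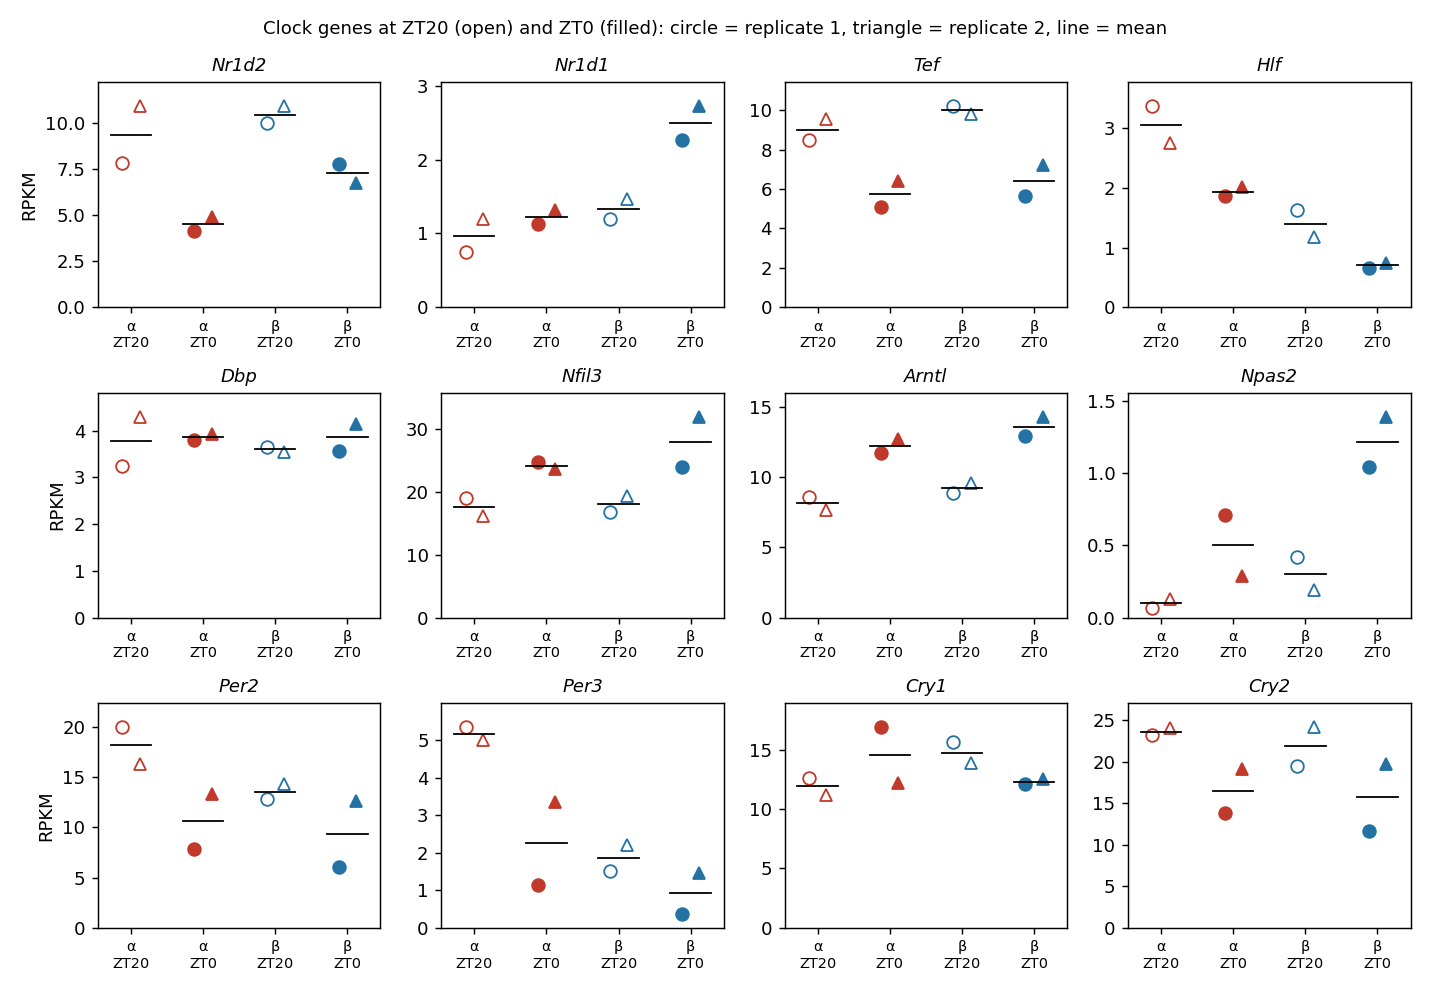
RPKM of 12 clock genes in the 8 libraries (open symbols ZT20, filled symbols ZT0, alpha cells red, beta cells blue, circles replicate 1, triangles replicate 2, lines the mean of the pair). Nr1d2, Tef and Hlf lie lower at ZT0 in both replicates of both cell types, and in Per2, Per3 and Cry2 replicate 1 of ZT0 is the lowest point of its cell type.

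The activators Arntl and Npas2, targets of REV-ERB repression, were higher at ZT0. Arntl had 8.59 and 7.69 RPKM at ZT20 and 11.7 and 12.7 at ZT0 in alpha cells. Its beta levels were 8.85 and 9.55 RPKM at ZT20 and 12.9 and 14.3 at ZT0. Every ZT0 library lay above every ZT20 library, across both cell types. ZT0 minus ZT20 was 0.57 on the log2 scale (SE 0.17, limma adjusted p = 0.83), with 0.58 in alpha and 0.56 in beta cells. Without both ZT0 libraries of replicate 1 the difference over both cell types was 0.64. ZT0 was the highest of the 6 times for Arntl in both cell types, with means of 12.2 and 13.6 RPKM against 1.43 and 0.557 at ZT12.

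Npas2 had 0.0690 and 0.127 RPKM at ZT20 and 0.710 and 0.287 at ZT0 in alpha cells. In beta cells it had 0.417 and 0.192 RPKM at ZT20 and 1.04 and 1.39 at ZT0. The times did not overlap within either cell type, although 4 to 69 reads lay behind these levels. The log2 difference of 1.94 (SE 0.38, limma adjusted p = 0.21) was the largest of the 21 clock genes, and it was 1.74 without both ZT0 libraries of replicate 1. Clock, the partner of BMAL1, overlapped between the times in both cell types, with a log2 difference of 0.04 (SE 0.07) that was -0.04 without both ZT0 libraries of replicate 1. Arntl2, a relative of Arntl with at most 40 reads in a library, had a log2 difference of -0.52 (SE 0.42), which was 0.20 without both ZT0 libraries of replicate 1.

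The PAR bZIP genes split. Tef had 8.48 and 9.55 RPKM at ZT20 and 5.10 and 6.39 at ZT0 in alpha cells. The beta libraries had 10.2 and 9.83 RPKM at ZT20 and 5.63 and 7.21 at ZT0. The ZT0 libraries lay below the ZT20 libraries across both cell types. ZT0 minus ZT20 was -0.65 on the log2 scale (SE 0.11, limma adjusted p = 0.14) and the same in each cell type. It was -0.48 without both ZT0 libraries of replicate 1.

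Hlf had 3.37 and 2.76 RPKM at ZT20 and 1.87 and 2.01 at ZT0 in alpha cells. Beta cells had 1.63 and 1.18 RPKM at ZT20 and 0.663 and 0.746 at ZT0. The times did not overlap in either cell type (log2 difference -0.80, SE 0.15, limma adjusted p = 0.2). That difference was -0.73 without both ZT0 libraries of replicate 1. On the log2 scale the step of Hlf spanned 69.2% of its range over the 6 times in alpha and 63.4% in beta cells, and that of Tef spanned 32.7% and 27.7%.

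Dbp, the third PAR bZIP gene, overlapped between the times, with 3.24 and 4.30 RPKM at ZT20 and 3.81 and 3.93 at ZT0 in alpha cells. The beta libraries, in the same order, had 3.66, 3.54, 3.57 and 4.14 RPKM. Its log2 difference was 0.07 (SE 0.12, limma adjusted p = 1), or 0.14 without both ZT0 libraries of replicate 1, and ZT20 was its lowest time in both cell types. Nfil3, the opponent of these factors at D-boxes, had 19.0 and 16.1 RPKM at ZT20 and 24.8 and 23.6 at ZT0 in alpha cells. Its beta levels were 16.8 and 19.3 RPKM at ZT20 and 24.0 and 32.0 at ZT0. Each ZT0 library of Nfil3 lay above each ZT20 library of its cell type (log2 difference 0.54, SE 0.34, limma adjusted p = 1). Without both ZT0 libraries of replicate 1 this difference was 0.63.

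**Figure D4:**
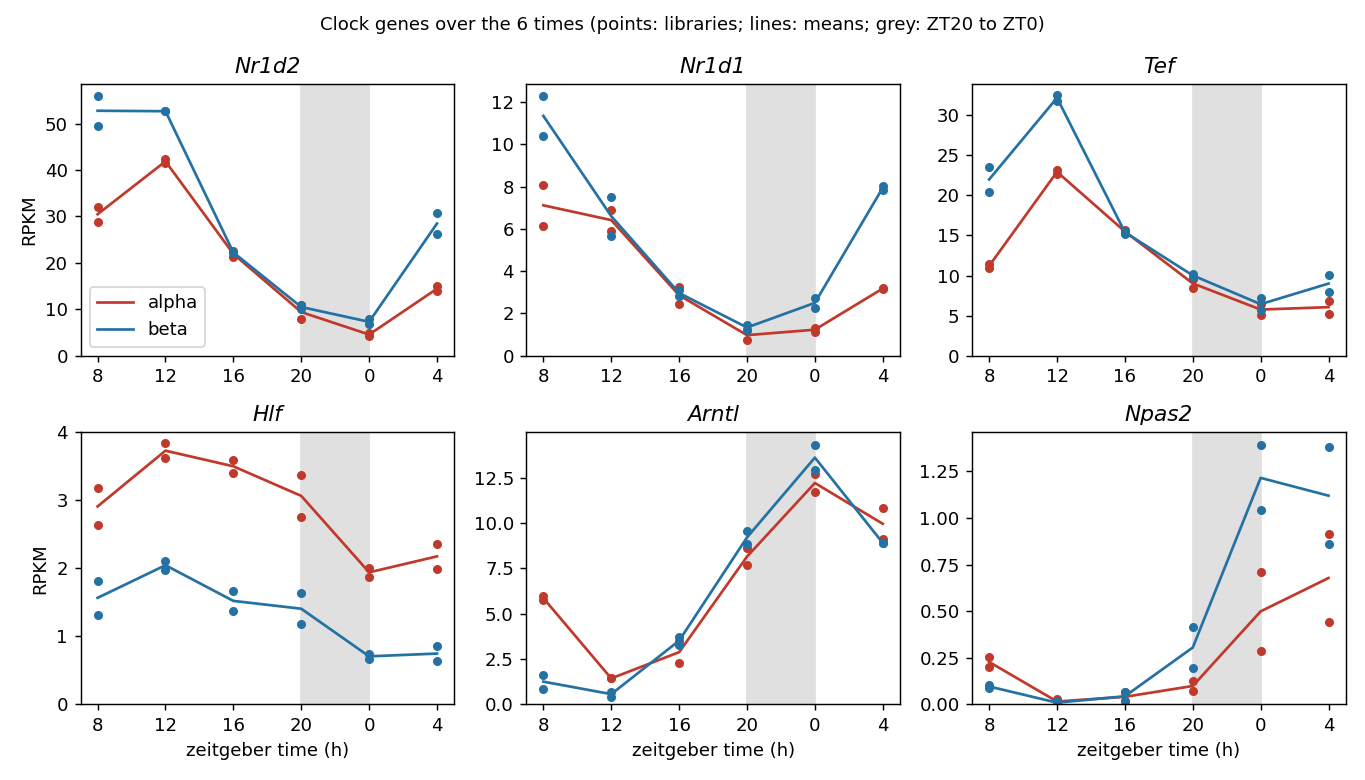
RPKM of 6 clock genes at the 6 zeitgeber times, plotted from ZT8 to ZT4 (points are libraries, lines join the means, alpha cells red, beta cells blue, the step from ZT20 to ZT0 in grey). Nr1d2 has its lowest and Arntl its highest mean at ZT0, and Nr1d1 has its lowest mean at ZT20.

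The PER and CRY repressor genes were mostly lower at ZT0, with sizes that rested on replicate 1. Per3 had 5.35 and 4.99 RPKM at ZT20 and 1.15 and 3.36 at ZT0 in alpha cells. In beta cells it had 1.51 and 2.21 RPKM at ZT20 and 0.371 and 1.46 at ZT0. The times did not overlap, but in each cell type replicate 1 of ZT0 lay far below replicate 2. ZT0 minus ZT20 was -1.33 on the log2 scale (SE 0.37, limma adjusted p = 0.71), -0.47 without both ZT0 libraries of replicate 1 and -2.20 without those of replicate 2.

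Per2 had 19.98 and 16.3 RPKM at ZT20 and 7.88 and 13.3 at ZT0 in alpha cells. The beta libraries had 12.8 and 14.3 RPKM at ZT20 and 6.07 and 12.6 at ZT0. The times did not overlap in either cell type, narrowly so in beta cells (log2 difference -0.72, SE 0.21, limma adjusted p = 0.73). It was -0.27 without both ZT0 libraries of replicate 1. Cry2 had 23.2 and 24.1 RPKM at ZT20 and 13.8 and 19.1 at ZT0 in alpha cells, and 19.5 and 24.2 at ZT20 and 11.7 and 19.7 at ZT0 in beta cells, where the times overlapped. Its log2 difference of -0.53 (SE 0.15, limma adjusted p = 0.73) was -0.23 without both ZT0 libraries of replicate 1.

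Per1, also an immediate early gene, turned direction with these libraries. It had 19.9 and 13.8 RPKM at ZT20 and 9.63 and 18.0 at ZT0 in alpha cells, and 7.97 and 8.28 at ZT20 and 3.91 and 12.7 at ZT0 in beta cells. Replicate 1 of ZT0 was the lowest library in both cell types, and replicate 2 lay between the ZT20 libraries in alpha and above them in beta cells. The log2 difference was -0.27 (SE 0.34), 0.38 without both ZT0 libraries of replicate 1 and -0.91 without those of replicate 2. Cry1 had 12.6 and 11.2 RPKM at ZT20 and 16.9 and 12.2 at ZT0 in alpha cells, and 15.6 and 13.9 at ZT20 and 12.1 and 12.5 at ZT0 in beta cells. Its steps were 0.27 in alpha and -0.26 in beta cells, and their difference of 0.53 did not pass (limma adjusted p = 1, unadjusted p = 0.053). Without both ZT0 libraries of replicate 1 the Cry1 steps were 0.05 in alpha and -0.23 in beta cells. Without those of replicate 2 they were 0.50 and -0.28. Ciart had at most 28 reads in any of the 8 libraries and a log2 difference of 0.15 (SE 0.33). For Ciart this was 0.48 without both ZT0 libraries of replicate 1 and -0.18 without those of replicate 2.

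Of the DEC repressors, which compete for E-boxes, Bhlhe41 was lower at ZT0 without overlap in both cell types by a small amount (log2 difference -0.16, SE 0.10), and Bhlhe40 overlapped (-0.15, SE 0.29, and -0.08 without both ZT0 libraries of replicate 1). Over the 21 clock genes, 3 were higher and 7 lower at ZT0 without overlap in both cell types, where 335 (2.39%) and 265 (1.89%) of all 14027 genes were. The alpha and beta steps had the same sign in 19 of the 21. The median absolute log2 difference of the 21 genes was 0.52, and that of all genes was 0.10. The clock genes were chosen with earlier results of these data known, so these counts are a description. With 1 ZT0 library per cell type, in the absence of replicate 1, 13 of the 21 did not overlap, 4 higher and 9 lower, where 2069 and 2234 of all genes did not. In the absence of replicate 2, 14 of the 21 did not overlap, 4 higher and 10 lower, where 3791 and 3078 of all genes did not.

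**Figure D5:**
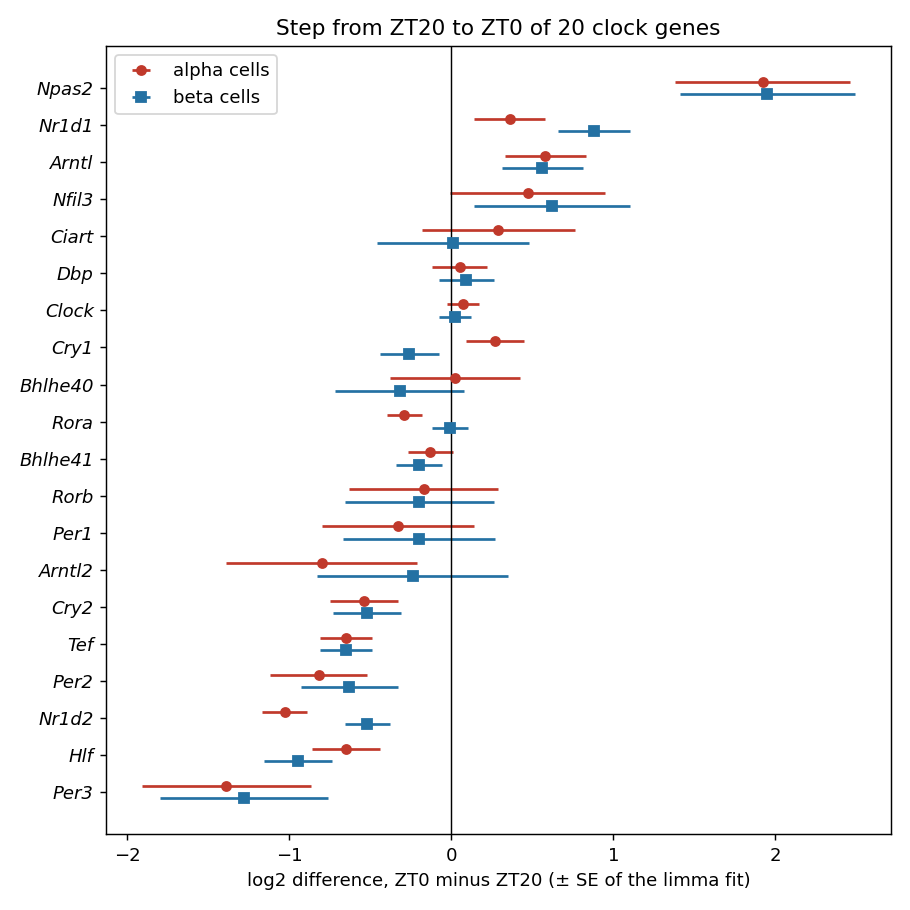
Log2 difference between ZT0 and ZT20 (x axis, above 0 means higher at ZT0) of 20 of the 21 clock genes in alpha cells (red circles) and beta cells (blue squares), with the SE of the limma fit. Npas2 lies highest (1.92 and 1.95) and Per3 lowest (-1.39 and -1.28), and Nr1d2 lies further from 0 in alpha (-1.03) than in beta cells (-0.52).

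Genes around the clock were described by the same counts. Of 14 kinases, ligases and partners that modify clock proteins, such as Csnk1d, 11 were lower at ZT0 with a median log2 difference of -0.09, and none was called or free of overlap in both cell types. Without both ZT0 libraries of replicate 1, 10 were lower and 4 higher, and without those of replicate 2, 8 were lower and 6 higher. Of 11 output genes shared by many tissues, 7 were lower (median -0.08, and -0.01 without both ZT0 libraries of replicate 2). Among 14 glucocorticoid and fasting targets 10 were lower (median -0.13), where 6844 of all 14027 genes were. The median of these targets was -0.09 without both ZT0 libraries of replicate 1 and -0.16 without those of replicate 2, with 10 lower each time. Fkbp5, a chaperone of the glucocorticoid receptor, had 20.2 and 19.7 RPKM at ZT20 and 15.8 and 14.7 at ZT0 in alpha cells, and 10.8 and 12.7 at ZT20 and 9.08 and 7.54 at ZT0 in beta cells. The times did not overlap in either cell type (log2 difference -0.44, SE 0.09, limma adjusted p = 0.26).

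Immediate early genes, which respond within minutes to stimuli and to tissue handling, were mostly higher at ZT0. Of 20, 17 were higher, with a median log2 difference of 0.37, and none was called. Atf3, a stress-induced repressor, had 19.5 and 14.3 RPKM at ZT20 and 37.6 and 29.2 at ZT0 in alpha cells, and 0.269 and 0.653 at ZT20 and 1.47 and 2.00 at ZT0 in beta cells. Fos had 343 and 386 RPKM at ZT20 and 412 and 563 at ZT0 in alpha cells. The beta libraries, in the same order, had 136, 200, 192 and 279 RPKM. Atf3 did not overlap in either cell type and Fos overlapped in beta cells, with SEs of 1.25 and 0.56 around log2 differences of 1.39 and 0.44. Fos differed by 0.69 without both ZT0 libraries of replicate 1 and by 0.20 without those of replicate 2. The list's median was 0.76 with 19 of 20 higher without both ZT0 libraries of replicate 1, and 0.15 with 14 of 20 higher without those of replicate 2.

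The lists of the respiratory chain, of ribosomal proteins and of the proteasome turned direction with the ZT0 libraries used. All 26 genes of the respiratory chain and ATP synthase were higher at ZT0 (median log2 difference 0.11), against 51.2% of all genes. Without both ZT0 libraries of replicate 1, 24 of the 26 were lower (median -0.13), and without those of replicate 2 all 26 were higher (median 0.38). The 31 ribosomal protein genes had 24 higher with both replicates, 31 lower without replicate 1 and 31 higher without replicate 2. The 26 proteasome genes had 24 higher with both, 20 lower without replicate 1 and 24 higher without replicate 2. The 19 genes of glycolysis and glucose entry did not turn as a list. Of these, 17 were higher with both replicates, 12 without replicate 1 and 16 without replicate 2. No gene of these lists was called.

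Genes of stimulus and secretion were not called either. Of 12 KATP, calcium and sodium channel genes 11 were lower at ZT0 (median log2 difference -0.37 in alpha and -0.05 in beta cells), but 8 of 12 were higher without both ZT0 libraries of replicate 1. Cacna1d, an L-type calcium channel gene, had 26.3 and 20.6 RPKM at ZT20 and 12.5 and 22.3 at ZT0 in alpha cells. Its beta levels, in the same order, were 20.4, 24.3, 14.0 and 27.7 RPKM. Replicate 1 of ZT0 was the lowest in both cell types. Scn9a, a sodium channel gene, was lower at ZT0 without overlap in both cell types (log2 difference -0.21, SE 0.07, limma adjusted p = 1). Of 9 hormone genes 4 were higher and 5 lower, and Gcg in alpha cells had 111000 and 121000 RPKM at ZT20 and 151000 and 97700 at ZT0. Ins2 in beta cells had 197000 and 138000 RPKM at ZT20 and 208000 and 127000 at ZT0. The times overlapped for both hormones in the cells that make them.

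Markers of other cell types moved between these libraries too. Of 16 acinar genes, which encode digestive enzymes, 15 were lower at ZT0 (median log2 difference -1.27, none called), and their summed level was 291 and 154 RPKM at ZT20 and 51.0 and 305 at ZT0 in alpha cells. In beta cells it was 528 and 196 RPKM at ZT20 and 84.6 and 143 at ZT0. The times overlapped in alpha cells and did not in beta cells. Without both ZT0 libraries of replicate 1 the acinar median was -0.35, with 0.50 in alpha and -1.20 in beta cells, and without those of replicate 2 it was -2.18. Of 7 measured immune markers all 7 were higher at ZT0 (median 0.75), with summed levels of 40.8 and 49.7 RPKM at ZT20 and 57.5 and 43.3 at ZT0 in alpha cells. The beta sums, in the same order, were 55.6, 39.3, 70.6 and 47.2 RPKM. The summed immune levels overlapped between the times in both cell types, and without both ZT0 libraries of replicate 1, 5 of the 7 markers were higher and 2 lower. The 4 endothelial markers summed to at most 1.84 RPKM in any library. They were all lower at ZT0 (median -0.63, and -1.19 without both ZT0 libraries of replicate 1), but 2 were higher and 2 lower without those of replicate 2 (median -0.07). The part of these cells in the other differences was not tested.

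No gene was called in beta cells alone, where 415 genes (2.96%) had an unadjusted limma p under 0.05 and limma-voom on recovered reads also called 0. The same threshold was met by 540 genes (3.85%) in alpha cells and by 626 (4.46%) over both cell types. No gene was called for a difference between the alpha and the beta step, by limma or limma-voom, with 243 genes (1.73%) at an unadjusted p under 0.05. The genes of lowest p in that test were Gng11, Mpi, Trp53i11, Luzp2 and Osgin1, each with a limma adjusted p of 1.

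Mpi, which encodes mannose phosphate isomerase, had 2.56 and 2.69 RPKM at ZT20 and 3.71 and 3.55 at ZT0 in alpha cells, and 5.94 and 6.22 at ZT20 and 5.50 and 4.68 at ZT0 in beta cells. It was higher at ZT0 in alpha and lower in beta cells without overlap in either (difference of steps 0.71 on the log2 scale). Trp53i11 went the other way, with 9.76 and 9.38 RPKM at ZT20 and 6.56 and 8.14 at ZT0 in alpha cells. Its beta levels, in the same order, were 5.89, 5.94, 7.35 and 7.27 RPKM (difference of steps -0.69). Osgin1 had 2.83 and 2.46 RPKM at ZT20 and 4.24 and 4.95 at ZT0 in beta cells and overlapped in alpha cells (-0.83). Gng11, a G protein subunit gene, had at most 18 reads in a library and none in either ZT0 beta library, and Luzp2 at most 22.

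The other steps around the day were fitted in the same way. With all 24 libraries limma called 641 genes from ZT0 to ZT4, 63 from ZT4 to ZT8, 46 from ZT8 to ZT12, 2876 from ZT12 to ZT16, 15 from ZT16 to ZT20 and 1 from ZT20 to ZT0. The last count was 578 without both ZT0 libraries of replicate 2 and 0 without those of replicate 1, so it gives no rank among the steps. Neighbouring steps share libraries, and the counts were not tested against each other. The SD of the log2 steps over all genes was 0.23 from ZT20 to ZT0 and 0.25 to 0.44 for the other 5. The 2 ZT0 replicates differed more than the ZT20 replicates, with a chi-square per gene of 43.3 and 49.7 in alpha and beta cells at ZT0 against 8.56 and 18.4 at ZT20.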

How the data were processed

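Per the labels' protocols, total RNA was purified on micro columns, depleted of ribosomal RNA and made into stranded libraries. The submitters' processing notes name STAR, edgeR and mm10, as used by the authors, without versions. How reads were assigned to genes (annotation, strand, filter on the 14027 genes) is not given in the sources used here, so overlapping and antisense genes cannot be told apart. The authors deposited log2 values. Their steps fit log2 RPKM with a prior count (mean 2 over libraries).

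Whole reads were recovered from the steps of these values for all 14027 genes (largest deviation from a whole number 8.1e-08); the median was 206 reads per gene and library, and 0.774% of values were at 0. The 24 libraries held 4944982 to 12364190 reads. For genes with few reads the prior count makes log2 differences too small. RPKM was computed from the recovered reads without the prior count.

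Tests used limma 3.58.1 in R 4.3.3 on the deposited values, with 1 mean for each of the 12 groups in all 24 libraries, trended prior variance and robust estimation. The step is the mean of the alpha and beta steps, so cell type is a factor. P-values were adjusted by Benjamini-Hochberg over all 14027 genes and called under 0.05. A gene has no overlap when both ZT0 libraries lie on the same side of both ZT20 libraries of the cell type. Lists are described by counts and medians, without tests. All columns of the table matched a library.

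Of 14027 identifiers, 13802 matched GENCODE on GRCm38 (mm10). Promoter windows came from RefSeq (GRCm38.p6), trimmed where they overlap an annotated exon.

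Genes named have a mean log2 value above -1, and clock genes are named at any level. Among called genes they are the 10 lowest p in each direction in both cell types and the 5 lowest in each cell type. The 5 lowest p of the difference and up to 3 called genes of every other list are added. Of the hormone genes, Gcg, Ins1 and Ins2 are named and the others are only counted. Predicted genes are not named, and 1 clock gene is counted but its values are not reported here. Outside this rule, Fkbp5, Atf3, Fos, Cacna1d, Scn9a, Csnk1d, Pdx1, Necab2, Tex15 and the genes in the closing observations were chosen with their values already seen. The members and the 40 lists were chosen with earlier results of these data known. Alternatives were the libraries in the fit, a replicate block, a correlation within time and number, the pseudocount, a filter, median centring, limma-voom, the prior variance and leaving out libraries. The analysis was tested on simulated reads, drawn independently for each library. The simulated reads did not copy the shared difference between the ZT0 replicates, so they do not show how it affects the calls.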

Additional observations from a re-analysis of the deposited data

How the results depend on the processing

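The count of called genes moved between 0 and 3 for both cell types together when each library was left out in turn, and between 0 and 1 in alpha cells; it was 0 in beta cells and for the difference of steps each time. Without replicate 2 of the ZT0 beta cells the 3 genes were Nr1d2, Tef and Necab2. In fits of the 8 libraries alone the count was 0 with group means over both cell types and in alpha cells, and 0 with additive factors. With a correlation estimated between libraries of the same time and number (0.37) it was 0 over both cell types and 1 in alpha cells. With log2(RPKM + 1) it was 0 in alpha cells and 1 in beta cells (Tex15, higher). Median-centred libraries gave 0 in alpha cells. Limma without trend and robust estimation gave 2 over both cell types, Nr1d2 and a predicted gene, and 0 in alpha cells. Settings without both ZT0 libraries of a number were added after seeing the data and leave 1 library in each ZT0 group, which is assumed to vary like the others. Without number 1 the count was 0 over both cell types and in alpha cells; without number 2 it was 578 (240 higher, 338 lower), 8 in alpha and 4 in beta cells. The replicate block gave 1 gene over both cell types, 1 in alpha, 0 in beta cells and 0 for the difference, and changed no call. Same-numbered libraries deviated with r = -0.16 between alpha ZT0 and ZT20, 0.36 between beta ZT0 and ZT20, 0.65 between alpha and beta at ZT0 and 0.04 at ZT20, so the pairing of numbers was not taken from the data. Genes under about 20 reads, such as Rorb and Gng11, were at the limit of the depth.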

Other observations

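Genes of antigen presentation by MHC class II were higher at ZT0 without overlap in both cell types; they were chosen after their values were seen. H2-Ab1 had 0.356 and 0.598 RPKM at ZT20 and 2.99 and 1.23 at ZT0 in alpha cells, and 0.912 and 1.25 at ZT20 and 3.70 and 2.56 at ZT0 in beta cells (log2 difference 1.62, SE 0.38, limma adjusted p = 0.5). H2-Eb1 (log2 difference 1.52), H2-Aa (1.35) and Cd74, the invariant chain gene (1.08), had the same order of times in both cell types, with limma adjusted p of 0.49, 0.98 and 1. Without both ZT0 libraries of replicate 1 the differences were 1.19 for H2-Ab1, 1.32 for H2-Eb1, 1.22 for H2-Aa and 0.64 for Cd74. H2-Aa and Cd74 are also 2 of the 7 measured immune markers, all of which were higher at ZT0 with both replicates and 5 without replicate 1. Ptprc, a marker of leukocytes, had at most 31 reads in a library, and its times overlapped in both cell types. C1qa, a complement gene of macrophages, also overlapped, with a log2 difference of 0.04. Igkc, an immunoglobulin light chain gene of B cells, had 3.00 and 4.13 RPKM at ZT20 and 22.2 and 3.75 at ZT0 in alpha cells, and 3.30 and 1.67 at ZT20 and 30.1 and 2.10 at ZT0 in beta cells. Among the 8 libraries it was high only in replicate 1 of ZT0, and its log2 difference of 1.44 (limma adjusted p = 1) was -0.03 without these libraries. The B cell marker Cd79a had at most 21 reads in a library and overlapped, with a log2 difference of 0.19 that was -0.36 without them. The part of immune cells in the MHC class II differences was not tested. At most 60 reads in a library lay behind H2-Ab1.

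Lpl, Khk and Il6ra were picked after their values were seen from the 20 genes of lowest p over both cell types, and none was called. Lpl, which encodes lipoprotein lipase, had 48.5 and 39.3 RPKM at ZT20 and 72.6 and 57.4 at ZT0 in alpha cells, and 9.52 and 7.72 at ZT20 and 14.3 and 11.4 at ZT0 in beta cells (log2 difference 0.57, SE 0.15, limma adjusted p = 0.71). Khk, which encodes fructokinase, had 3.43 and 4.69 RPKM at ZT20 and 5.71 and 5.32 at ZT0 in alpha cells. Its beta levels, in the same order, were 8.23, 7.63, 11.3 and 9.69 RPKM (log2 difference 0.42, limma adjusted p = 0.49). Neither gene overlapped between the times in either cell type. Without both ZT0 libraries of replicate 1 the differences were 0.40 for Lpl and 0.34 for Khk. Il6ra, a receptor subunit for interleukin 6, was lower at ZT0 without overlap in alpha cells, with 47.0 and 43.2 RPKM at ZT20 and 30.9 and 34.7 at ZT0, and overlapped in beta cells (log2 difference over both -0.42, limma adjusted p = 0.66, and -0.26 without both ZT0 libraries of replicate 1).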
